A study of Mus musculus with 4 samples.

Results

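The genes described are the chemokines Cxcl9, Cxcl10 and Cxcl16 and the receptors Cxcr3 and Cxcr6. They are 5 of the 31053 genes in the 4 single-cell count matrices of CD45+ cells from mouse skin. They were taken by name and not by a cut on their values, but earlier results of these data were known. Control skins were compared with skin tumors, with 2 libraries in each group. Control skins came from C57/BL6 mice that had received no tumor cells. Skin tumors grew on the flank of C57/BL6 mice after inoculation of 2323 cells, a single line derived from a mouse model that carries K14rtTA, tetOCre and P53-/- among its alleles, in which keratin 14-driven rtTA switches on Cre, so that the tumors of that model start from keratin 14-expressing skin cells. Injected mice of both sexes were 8 to 10 weeks old at inoculation, and their tumors were collected at 100 to 200 mm3. Both tissues were digested with collagenase IV and sorted for live CD45+ cells, so keratinocytes, fibroblasts, endothelial cells and tumor cells, which can also make these ligands, were largely removed before sequencing. The labels do not say whether the libraries of a group came from separate animals, and the p-values below measure only the spread between these libraries. The age and sex of the control animals were not given in the sources used here.

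Chemokines are small secreted proteins that bind G protein-coupled receptors on leukocytes and direct their movement. Cxcl9 and Cxcl10 both bind Cxcr3, a receptor of activated CD8 T cells, type 1 helper T cells, some Treg and NK cells, and both are induced by interferons, Cxcl9 mainly by interferon gamma and Cxcl10 also by type I interferons. Cxcl16 is made as a membrane protein with a mucin-like stalk from which Adam10 can release the soluble chemokine, and it is the ligand of Cxcr6, a receptor found on tissue-resident and effector T cells, NKT cells and innate lymphoid cells. In tumors, ligands made by macrophages and dendritic cells are known to draw or to hold T cells that carry these receptors.

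Cxcl9 (ENSMUSG00000029417, chr5:92321347-92328079) and Cxcl10 (ENSMUSG00000034855, chr5:92346638-92348889) were neighbours on the minus strand of chromosome 5 of the mouse build GRCm38. Cxcl16 (ENSMUSG00000018920) lay at chr11:70453983-70459984 on the minus strand, Cxcr3 (ENSMUSG00000050232) at chrX:101731535-101734269 on the minus strand and Cxcr6 (ENSMUSG00000048521) at chr9:123806475-123811760 on the plus strand. The RefSeq promoter table of build GRCm38.p6 held 4 of the 5 genes. The promoters of the neighbouring interferon-induced ligands are shown because both genes were called higher in the same 3 cell classes described below. They are printed 5′ to 3′ on the strand of the gene, as the 250 bases just before the start, chr5:92328080-92328329 for Cxcl9 and chr5:92348890-92349139 for Cxcl10, and capitals mark matches to the motifs searched.
Cxcl9 promoter: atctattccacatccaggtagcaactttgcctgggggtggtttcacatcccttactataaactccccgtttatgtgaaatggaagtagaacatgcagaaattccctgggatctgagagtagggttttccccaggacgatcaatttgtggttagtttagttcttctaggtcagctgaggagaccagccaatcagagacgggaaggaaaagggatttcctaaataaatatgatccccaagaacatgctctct
Cxcl10 promoter: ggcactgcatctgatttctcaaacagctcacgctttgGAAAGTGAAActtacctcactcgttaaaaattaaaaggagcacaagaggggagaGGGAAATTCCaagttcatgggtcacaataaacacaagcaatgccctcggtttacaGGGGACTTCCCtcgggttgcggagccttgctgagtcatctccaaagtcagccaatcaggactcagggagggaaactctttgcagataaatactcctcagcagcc

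Motifs were searched on both strands of the 250 bases before the start of 32851 promoters. The Cxcl10 promoter held 1 match to the interferon-stimulated response element, searched as TTTC, any 2 bases and TTTC, which lay on the opposite strand 213 to 204 bases before the start. 2.98% of all promoters held such a match. Cxcl10 also held 4 matches to the kappa B motif of NF-kappa B factors, 1 at 159 to 150 bases before the start and 3 that overlapped each other between 104 and 94 bases. The bases from 103 to 94 were counted on both strands. At least 1 match was held by 7.25% of all promoters. The gamma-activated site of interferon gamma signaling, spelled TTCNNNGAA and present in 7.02% of promoters, had no match in the windows of Cxcl9, Cxcl10, Cxcr3 and Cxcr6. The T-box motif TCACACNT, which 2.95% of promoters held, matched once in Cxcr3, 234 to 227 bases before the start. The absence of a match says only that these letters are not in the window.

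The libraries held 3499 and 3862 cells from control skins and 5176 and 2258 cells from skin tumors, of which 2981, 3089, 4784 and 1994 were kept. The libraries summed to 34893543 to 73904272 UMIs (unique molecular identifiers, each of which counts 1 captured transcript), and the median kept cell held 10610 to 13361.5 UMIs. Pairs of libraries shared 1 to 7 cell barcodes. Cells were gated by marker genes, none of which was a member, into 16 classes, and 3184 of the kept cells, or 24.8%, fell outside every gate. Of these classes 15 are named by their markers, whereas the CD3+ cells that no other T cell gate took are a mixed class without markers of its own. Of its 10 leading genes, 3 are dermal γδT markers (Cd163l1, Il17a and Blk). Gated dermal γδT cells numbered 33 and 37 in control skins against 9 and 0 in tumors. The part of a differing makeup in the results of the mixed class was not tested. Every fixed marker of a class was detected in every library except Il5 and Il13 in the ILC2 of tumor 2 and 1 or 2 of the 8 dermal γδT markers. C1q-high macrophages numbered 55 and 198 in control skins against 1951 and 625 in tumors, while Langerhans cells numbered 415 and 356 against 4 and 10, and DETC, the dendritic epidermal γδT cells, 577 and 655 against 2 and 19. Tumor against control was therefore tested within 13 classes with at least 10 cells in each library, and not in Langerhans cells, DETC or dermal γδT cells. All libraries expressed Y-linked genes and nearly no Xist. The summed level of a list of 10 dissociation and stress genes such as Fos and Jun was higher in both tumors, at 108 and 107 UMIs per 10,000 against 62.7 and 54.5 in control skins. It was higher in both tumors also within the classes that carry most of the calls below, for example at 124 and 100.3 against 58.4 and 31.7 in NK cells and at 101 and 140.5 against 42.6 and 51.7 in cDC2, and its part in the results was not tested.

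Over all kept cells, UMIs of the interferon-induced ligands were far more frequent in tumors, Cxcl16 was moderately more frequent, Cxcr3 overlapped between the groups and Cxcr6 was less frequent. Values are given throughout as UMIs per 10,000 UMIs of the class, in the order of control skins 1 and 2 and then tumors 1 and 2. Cxcl9 was at 0.426 and 0.0779 in control skins and at 7.07 and 3.74 in tumors. Cxcl10 was at 0.150 and 0.378 against 3.92 and 2.45, and Cxcl16 at 2.13 and 1.78 against 4.06 and 3.27. For these 3 genes each tumor exceeded each control skin. How many of all genes show such an order was not counted, here or in the classes below. Cxcr3 was at 0.100 and 0.0456 against 0.0511 and 0.0616, and Cxcr6 at 3.64 and 2.11 against 0.431 and 0.548, with both tumors below both control skins. These sums over all cells mix the makeup of the sorted cells with the level per cell, and with 2 libraries a group an exact permutation test cannot go below p = 0.333. All further results were therefore taken within classes, where edgeR's quasi-likelihood test across all genes shares its estimate of the spread.

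**Figure D1:**
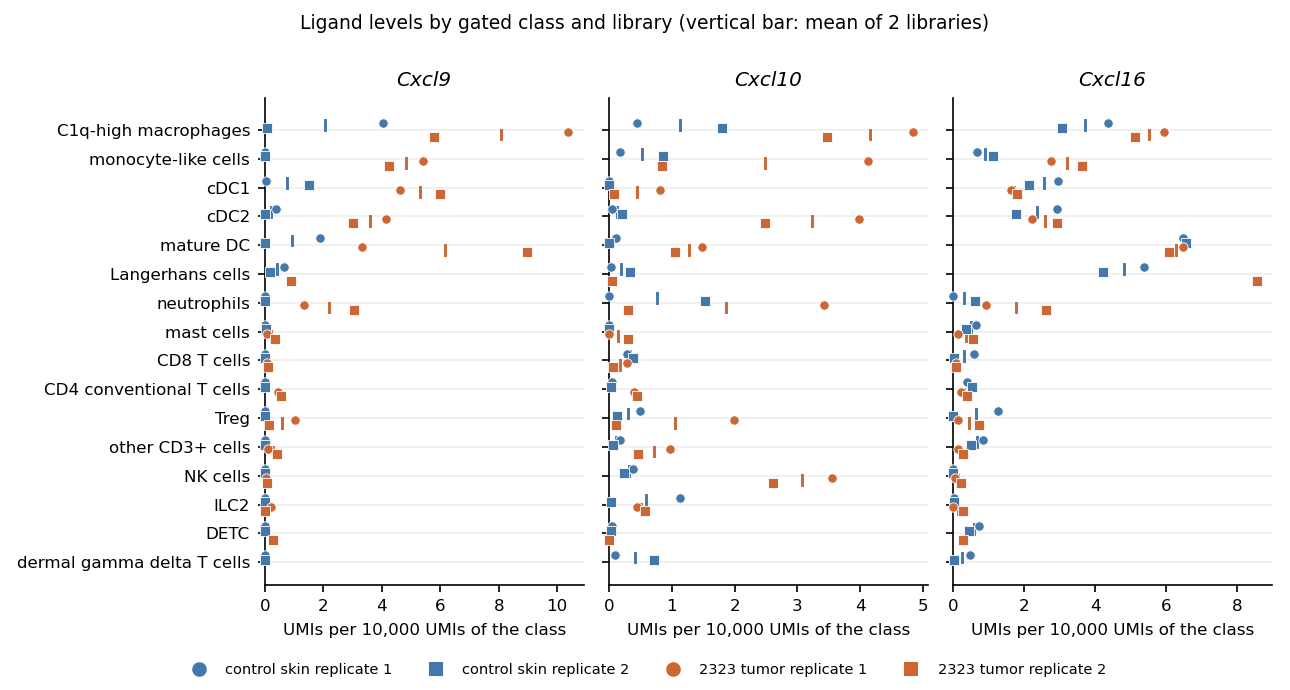
UMIs of Cxcl9, Cxcl10 and Cxcl16 per 10,000 UMIs (x axis) in each gated cell class (rows), with blue points for control skins, orange points for skin tumors, circles for replicate 1, squares for replicate 2 and a vertical bar at the group mean. Classes with fewer than 10 cells in a library are not shown for it. Cxcl9 in monocyte-like cells was at 0 in both control skins and at 5.42 and 4.25 in tumors, and Cxcl16 in mDC lay between 6.08 and 6.56 in all 4 libraries.

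By the mean of the 2 tumors, Cxcl9 was highest in C1q-high macrophages, macrophages gated by their complement C1q genes. Its level there was 10.4 and 5.78 in tumors, against 4.04 and 0.0764 in control skins, and the groups did not overlap. In tumor 2 the dendritic cell classes mDC (8.96) and cDC1 (5.98), described below, lay above these macrophages. Transcripts were found in 1333 of 1951 and 379 of 625 macrophages of tumors (68.3% and 60.6%), but in only 7 of 55 and 3 of 198 macrophages of control skins (12.7% and 1.52%). After every cell was thinned to 1000 UMIs these shares were 32.1% and 24.03% against 7.97% and 0.546%. A single cell held 152 of the 438 Cxcl9 UMIs of control skin 1, and without it that library was at 2.69. The next cell held a further 150. The Cxcl9+ macrophages of control skins were lower in Mrc1 (0.548 and 3.68 against 7.15 and 12.2 in Cxcl9- ones) and Lyz2 (16.8 and 23.4 against 51.0 and 62.7). In tumors these genes differed less, with Mrc1 at 7.29 and 6.86 against 7.78 and 8.24 and Lyz2 at 48.7 and 74.2 against 43.6 and 71.2. The fitted difference in these macrophages was 1.85 on the log2 scale with an SE of 1.22 and an interval from -0.55 to 4.24, and it did not pass (adjusted p = 0.635, edgeR with Benjamini-Hochberg correction over all genes of the class). Few genes passed in this class at all, 0.485% of 11960. Without the filter on low counts, or without either tumor, the Cxcl9 difference was called.

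In monocyte-like cells, which express Ly6c2 and Plac8 with little C1q, Cxcl9 was not detected in control skins and was abundant in tumors. There were 0 UMIs in 35 and 149 control cells, which allows shares of up to 8.57% and 2.01%, against 2810 and 1002 UMIs in tumors, or 5.42 and 4.25 per 10,000, in 35.4% and 30.5% of cells. With 3 UMIs set as the limit over the control group, the level was at least 386-fold higher in tumors, and the gene was called (adjusted p = 0.00179, edgeR), as were 0.269% of the 8915 genes of the class. The call was lost without either control skin, with an adjusted p of up to 0.398.

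All 3 dendritic cell classes also held more Cxcl9 UMIs per 10,000 in each tumor than in each control skin. In cDC2, the conventional dendritic cells that present antigen mainly to CD4 T cells, Cxcl9 rose from 0.393 and 0.0122 to 4.15 and 3.03, a 16.4-fold difference (log2 4.04, SE 0.88, adjusted p = 0.0331, edgeR) in a class in which 9.13% of 9167 genes were called. Positive cDC2 made up 5.19% and 0.735% of cells in control skins and 41.2% and 41.8% in tumors. The Cxcl9 call in cDC2 was lost with DESeq2, without tumor 1 and without control skin 2, with an adjusted p of up to 0.175. In cDC1, which cross-present antigen to CD8 T cells, Cxcl9 was at 0.0393 and 1.501 against 4.61 and 5.98, with 63 of the 74 UMIs of control skin 2 in 1 cell. Its fitted difference of 2.48 (SE 0.73) did not pass (adjusted p = 0.0852, edgeR) but was called in 3 of 10 alternative settings, and 4.9% of the 5612 genes of the class did. In mDC, the mature Ccr7+ dendritic cells, Cxcl9 was at 1.90 and 0 against 3.34 and 8.96, and 62 of the 63 UMIs of control skin 1 came from 1 cell. The difference of 2.61 (SE 1.20) did not pass either (adjusted p = 0.294, edgeR), against 3.14% of 5216 genes. Langerhans cells, the dendritic-like cells of the epidermis, held 0.653 and 0.190 in control skins, with 226 of the 457 UMIs of control skin 1 in 1 cell.

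Lymphocytes of control skins held almost no Cxcl9, and those of tumors held a little. In CD4 conventional T cells it went from 0 UMIs in 70 and 33 cells, which allows shares of up to 4.29% and 9.09%, to 0.446 and 0.548 per 10,000, at least 20.1-fold higher, and was called (adjusted p = 0.00176, edgeR, against 10% of the 7929 genes of the class). Single cells held 30 of 49 and 47 of 51 of these UMIs, and without them the tumors were at 0.177 and 0.0437. With stricter gates the gene had no test in this class. The 14 and 5 Cxcl9+ CD4 cells of tumors also held more Cd74, the invariant chain of antigen-presenting cells, at 28.3 and 12.4 against 1.99 and 7.28 in Cxcl9- CD4 cells. The CD4 cells of control skins, none of which held Cxcl9, had Cd74 at 20.8 and 17.8. Within tumors Lyz2 was higher in the Cxcl9+ cells as well, at 1.43 and 9.19 against 0.491 and 1.76. C1qa was lower in tumor 1 and higher in tumor 2, at 0 and 0.889 against 0.218 and 0.266. In the mixed CD3+ class 1 UMI was counted in control skins and 27 and 29 in tumors, a ratio of 172 with a counting interval from 29.6 to 6906, and the gene was called there too (adjusted p = 0.00426, edgeR). 23.8% of the 10465 genes of that class were called, and the Cxcl9 call was lost with stricter gates (adjusted p = 0.0517, edgeR).

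In CD8 T cells the 0 UMIs of control skins stood against 0.0628 and 0.110 in tumors, at least 4.82-fold higher, and in 9.27% and 10.3% of cells. Cxcl9 and C1q UMIs of these CD8 T cells stood in ratios of 0.116 and 0.114, close to the 0.131 and 0.105 of the C1q-high macrophages. C1q was used in both gates, so these ratios depend on the gating, and the part of macrophage RNA in the Cxcl9 of lymphocytes was not tested. Treg held 0 against 1.03 and 0.138, with 89 of the 107 UMIs of tumor 1 in 1 cell, and NK cells 0 against 0.0511 and 0.0814, from 11 UMIs. C1q UMIs themselves were more frequent in the T and NK classes of tumors, for example at 0.541 and 0.969 against 0.111 and 0.0191 in CD8 T cells and 0.536 and 0.374 against 0.146 and 0.175 in NK cells. Neutrophils held 0 Cxcl9 UMIs in control skins and 1.34 and 3.05 per 10,000 in tumors, at least 33.2-fold higher. Their Cxcl9+ cells were also richer in C1qa (8.77 and 17.3 against 0.610 and 6.53 in Cxcl9- neutrophils) and poorer in the neutrophil gene S100a8 (65.2 and 28.6 against 174 and 98.9). No gene passed in neutrophils (edgeR, 0% of 4710 genes, with 179 at an unadjusted p under 0.05 and 12 called by DESeq2), and Cxcl9 had an adjusted p of 0.153 but was called in 7 of 11 alternative settings.

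Among the classes of tumors, the mean Cxcl9 level ran from C1q-high macrophages (8.08 ± 3.25, SD, n = 2) through mDC (6.15), cDC1 (5.29) and monocyte-like cells (4.84 ± 0.829), neighbours whose ranges overlapped. cDC2 at 3.59 lay below monocyte-like cells without overlap and overlapped neutrophils at 2.20, and Treg at 0.583 came next. In control skins C1q-high macrophages (2.06 ± 2.80), mDC, cDC1, Langerhans cells and cDC2 could not be separated from their neighbours in this order by their spread.

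Cxcl10 had enough UMIs for a test in 11 classes, against 8 for Cxcl9, and NK cells were among them. It rose in NK cells, the Ncr1+ cytotoxic lymphocytes, from 0.379 and 0.245 in control skins to 3.54 and 2.60 in tumors, without overlap. This was a 9.52-fold difference (log2 3.25, SE 0.33, adjusted p = 0.00143, edgeR) in a class in which 2.34% of 5807 genes were called, and the call held in all 12 alternative settings, at an adjusted p of up to 0.0196. Positive NK cells were 6 of 32 and 3 of 26 in control skins and 36 of 139 and 20 of 64 in tumors, so that the shares moved less (18.8% and 11.5% against 25.9% and 31.2%) than the UMIs per positive cell, which averaged 2.17 and 2.33 against 11.6 and 8. At 1000 UMIs per cell the shares were 3.14% and 2.08% against 12.9% and 11.5%. The NK cells of tumors held 6.60 and 6.96 Cxcl10 UMIs per C1q UMI, whereas C1q-high macrophages held 0.0611 and 0.0628. Cxcl10+ NK cells of tumors had less C1qa than Cxcl10- NK cells (0.114 and 0.0415 against 0.272 and 0.134) and less Cd74 (1.66 and 0.747 against 2.07 and 2.33). Lyz2 was higher in tumor 1 and lower in tumor 2 (0.432 and 0.373 against 0.395 and 1.31). Cxcl9 was lower in tumor 1 and higher in tumor 2 (0.0454 and 0.124 against 0.0545 and 0.0535). The part of macrophage RNA in the Cxcl10 of NK cells was not tested. These Cxcl10+ cells had more Ifng (3.57 and 5.85 against 2.33 and 1.82) and at least as much Ncr1 (1.86 and 2.95 against 1.58 and 1.74). In control skins Ifng was not higher in the few Cxcl10+ NK cells (1.54 and 0.563 against 2.94 and 1.16).

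In cDC2, Cxcl10 rose 19.1-fold, from 0.0459 and 0.215 to 3.98 and 2.48 (log2 4.25, SE 0.52, adjusted p = 0.00695, edgeR), and positive cells from 6.49% and 3.68% to 30.3% and 30.4%. The call was lost without either control skin, at an adjusted p of up to 0.0696. In mDC it rose 19.8-fold, from 0.120 and 0 to 1.49 and 1.05 (log2 4.31, SE 0.78, adjusted p = 0.0440, edgeR), with only 4 UMIs in control skins. That call was lost without either control skin, without tumor 2 and without Scrublet doublets (adjusted p up to 0.105). In cDC1 no UMI was found in 15 and 24 control cells, which allows shares of up to 20% and 12.5%, and tumors were at 0.809 and 0.0776, at least 17.1-fold higher over the group, but the 157 and 3 UMIs of the tumors differed widely.

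CD4 conventional T cells also rose in Cxcl10, 9.33-fold from 0.0462 and 0.0280 to 0.401 and 0.440 (log2 3.22, SE 0.52, adjusted p = 0.00475, edgeR), a call lost without control skin 1 (adjusted p = 0.0813). No single CD4 cell held more than 8 of the 44 and 41 UMIs. In the mixed CD3+ class it rose 5.43-fold, from 0.173 and 0.0638 to 0.976 and 0.455 (log2 2.44, SE 0.47, adjusted p = 0.0116, edgeR), and that call was lost without tumor 1 (adjusted p = 0.0694). In CD8 T cells both tumors lay just below or well below the control skins, at 0.284 and 0.383 against 0.280 and 0.0661, and the difference did not pass (log2 -0.75, SE 0.51, adjusted p = 0.421, edgeR, with 6.63% of 8114 genes called in the class). In Treg the groups overlapped at 0.489 and 0.134 against 1.99 and 0.108, with 83 of the 207 UMIs of tumor 1 in 1 cell.

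C1q-high macrophages held more Cxcl10 in both tumors, 4.83 and 3.46 against 0.452 and 1.80, and were positive in 47.6% and 39.0% against 16.4% and 19.2% of cells. The difference of 1.63 (SE 0.54, interval 0.58 to 2.69) did not pass across all genes (adjusted p = 0.270, edgeR), but was called by DESeq2 and without either tumor. Monocyte-like cells overlapped between the groups, at 0.181 and 0.861 against 4.13 and 0.844 (adjusted p = 0.422, edgeR). In tumors the order of mean levels was C1q-high macrophages (4.15 ± 0.968, SD, n = 2), cDC2 (3.23 ± 1.07), NK cells (3.07 ± 0.663) and monocyte-like cells (2.49), none of which was separated from the next by its spread.

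Cxcl16 was found in most C1q-high macrophages and dendritic cells of both tissues, and in these classes and monocyte-like cells no difference between tumors and control skins passed. In mDC it was at 6.47 and 6.56 in control skins and 6.48 and 6.08 in tumors, the highest level of the classes tested, and 86.7% to 100% of mDC were positive. The difference in mDC was -0.16 on the log2 scale (SE 0.22, interval -0.58 to 0.26, adjusted p = 0.737, edgeR). C1q-high macrophages held 4.35 and 3.08 against 5.93 and 5.11 (log2 0.40, SE 0.23, interval -0.05 to 0.85, adjusted p = 0.564, edgeR), and 74.2% to 94.6% of them were positive. In monocyte-like cells it stood at 0.679 and 1.11 against 2.76 and 3.63, without overlap, in 25.7% and 30.9% against 56.0% and 63.5% of cells, and missed the threshold (log2 1.65, SE 0.28, adjusted p = 0.0977, edgeR), which it passed in 5 of 12 alternative settings. cDC2 overlapped at 2.93 and 1.78 against 2.23 and 2.93, and cDC1 held 2.95 and 2.15 against 1.62 and 1.81 (adjusted p = 0.181, edgeR).

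Langerhans cells held the largest share of Cxcl16 UMIs of any gated class in control skins. Their level there was 5.38 and 4.22, and 93.3% and 90.7% of cells were positive. The 10 Langerhans cells of tumor 2 held 8.55, above the mDC of that library. By level, mDC of control skins lay above Langerhans cells, and these overlapped C1q-high macrophages. In the mixed CD3+ class Cxcl16 fell to 0.254 of its control level, from 0.831 and 0.504 to 0.150 and 0.279 (log2 -1.98, SE 0.38, adjusted p = 0.0116, edgeR), a call that was lost without tumor 1 and without control skin 1 (adjusted p up to 0.0705). NK cells held 0 Cxcl16 UMIs in control skins and 0.0596 and 0.212 in tumors, in 5.04% and 10.9% of cells at a median depth of 8183 UMIs. Other lymphocytes of control skins held more, with DETC at 0.718 and 0.452, CD4 T cells at 0.404 and 0.533 and CD8 T cells at 0.581 and 0.0383. Treg were at 1.27 and 0, dermal γδT cells at 0.489 and 0.0297 and ILC2 at 0.0159 and 0.0314.

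**Figure D2:**
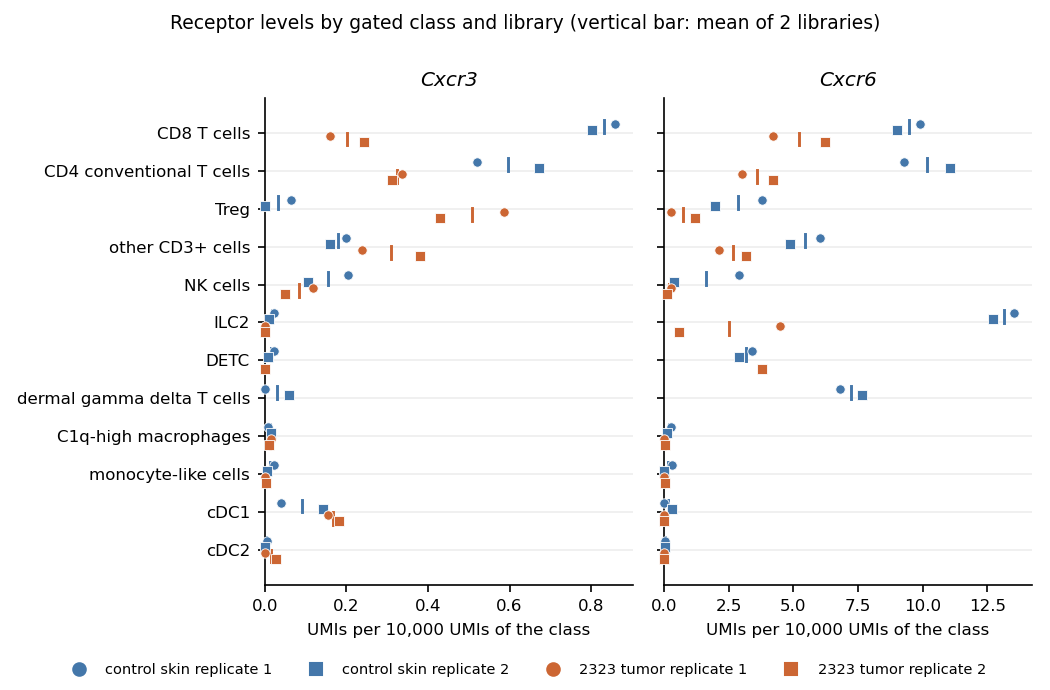
UMIs of Cxcr3 and Cxcr6 per 10,000 UMIs (x axis) in 12 gated classes (rows), drawn with the same colors and symbols, and the bar at the group mean. Cxcr3 was lower in tumors in CD8 T cells (0.159 and 0.242 against 0.859 and 0.803) and higher in Treg (0.586 and 0.430 against 0.0652 and 0), and Cxcr6 was lower in both tumors in all of the CD8, CD4, Treg, NK and ILC2 classes. The share of all genes with such an order in these classes was not counted.

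The receptor Cxcr3 changed in opposite directions in CD8 T cells and Treg. In CD8 T cells it fell from 0.859 and 0.803 in control skins to 0.159 and 0.242 in tumors, to 0.196 of the control level (log2 -2.35, SE 0.32, adjusted p = 0.00803, edgeR). Positive cells were 76 of 134 and 24 of 46 in control skins (56.7% and 52.2%) and 49 of 248 and 7 of 39 in tumors (19.8% and 17.9%), at library medians of 9457 to 14297.5 UMIs per cell. Thinned to 1000 UMIs, the shares were 9.10% and 7.91% against 2.32% and 3.32%. The call was lost without either tumor, at an adjusted p of up to 0.161. The CD8 T cells compared were also different in Itgae, the αE integrin of resident T cells, which was at 4.15 and 4.30 in control skins and 0.0266 and 0.0220 in tumors.

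In Treg, the Foxp3+ suppressor T cells, Cxcr3 rose from 2 UMIs in 32 cells and 0 in 30 to 61 UMIs in 105 cells and 28 in 54, or from 0.0652 and 0 to 0.586 and 0.430 per 10,000. The 2 control UMIs against 89 in tumors gave a ratio of 13.9 with a counting interval from 3.75 to 117, and the fit gave log2 3.67 (SE 0.78, adjusted p = 0.0490, edgeR) in a class in which 2.53% of 6197 genes were called. Positive Treg were 6.25% and 0% of control cells, where 0 of 30 allows up to 10%, and 41.0% and 37.0% of tumor cells, whereas 1.82% to 2.82% of C1q-high macrophages, which should lack the gene and had a median depth of 18901 UMIs against 7368 in Treg, were positive. The call stood just under the threshold and was lost with DESeq2, without tumor 1 and without control skin 2 (adjusted p up to 0.416). Tbx21, which encodes T-bet, was also at 0.548 and 0.645 in tumor Treg against 0.196 and 0.0448, while Foxp3 itself was at 3.06 and 2.78 against 4.56 and 4.97.

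CD4 conventional T cells lay between these, with Cxcr3 at 0.519 and 0.673 in control skins and 0.337 and 0.311 in tumors, without overlap, in 44.3% and 42.4% against 24.1% and 19.1% of cells. Their difference of -0.93 (SE 0.31) did not pass (adjusted p = 0.0868, edgeR). NK cells held 0.204 and 0.105 against 0.119 and 0.0488, and the mixed CD3+ class 0.199 and 0.161 against 0.239 and 0.382 (adjusted p = 0.272, edgeR). Among myeloid cells, cDC1 stood apart with 0.0393 and 0.142 against 0.155 and 0.181, in 6.67% to 30.8% of cells, from 45 UMIs in all. In the order of mean levels CD8 T cells led in control skins (0.831 ± 0.0393, SD, n = 2), above CD4 T cells (0.596) without overlap, and Treg were at 0.0326 ± 0.0461. In tumors Treg led (0.508 ± 0.110), above CD4 T cells (0.324) without overlap. CD4, the mixed CD3+ class, CD8 T cells (0.201 ± 0.0585) and cDC1 followed in this order, and neighbours among them overlapped. cDC1 (0.168) lay above NK cells (0.0840) without overlap.

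**Figure D3:**
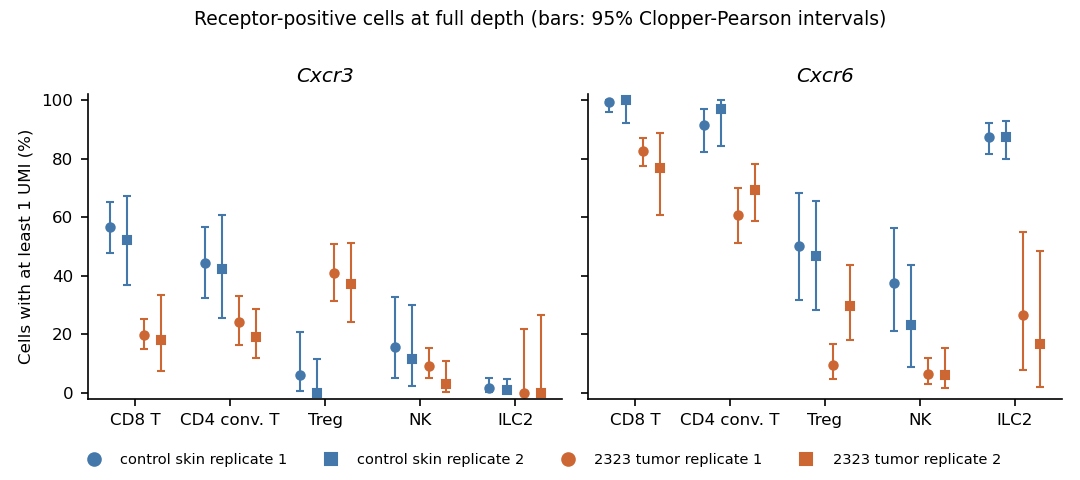
Percent of cells with at least 1 UMI of Cxcr3 or Cxcr6 (y axis) in CD8 T cells, CD4 conventional T cells, Treg, NK cells and ILC2 of each library, with bars for exact 95% Clopper-Pearson intervals, which cover counting error only. Cxcr3+ cells were 52.2% to 56.7% of CD8 T cells in control skins and 17.9% to 19.8% in tumors, but 0% to 6.25% of Treg in control skins and 37.0% to 41.0% in tumors.

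Cxcr6 was high in most lymphocyte classes of control skins and was lower in tumors in each of the 7 classes tested, of which 4 passed. It was highest in ILC2, the Gata3+ innate lymphoid cells without CD3, where it fell from 13.5 and 12.7 in control skins to 4.47 and 0.581 in tumors, to 0.147 of the control level (log2 -2.76, SE 0.62, adjusted p = 0.0140, edgeR). The median gene of that class was also at -0.36, and 6.77% of its 5964 genes were called. Positive ILC2 were 87.5% and 87.3% of 168 and 118 cells in control skins and 4 of 15 and 2 of 12 cells in tumors, whose median depths were 2193 and 2986 UMIs against 5435.5 and 8064.5. Thinned to 1000 UMIs, the shares were 62.1% and 60.7% against 17.1% and 5.87%. Of the 20 UMIs of tumor 1, 15 came from 1 cell, without which it was at 1.38, and the call was lost without either control skin (adjusted p up to 0.148).

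In CD4 conventional T cells Cxcr6 fell to 0.337 of the control level, from 9.27 and 11.1 to 2.99 and 4.21 (log2 -1.57, SE 0.26, adjusted p = 0.00486, edgeR), in 91.4% and 97.0% against 60.7% and 69.1% of cells. Without control skin 1 the adjusted p was 0.0669. CD8 T cells held 9.91 and 9.01 against 4.20 and 6.21, again without overlap, and all but 1 of 180 control cells were positive, against 82.7% and 76.9% in tumors. Their difference of -1.04 (SE 0.27) missed the threshold (adjusted p = 0.0589, edgeR), and was called by DESeq2. The mixed CD3+ class fell to 0.432 of its control level, from 6.01 and 4.87 to 2.14 and 3.17 (log2 -1.21, SE 0.24, adjusted p = 0.0134, edgeR), a call lost without control skin 1 (adjusted p = 0.0725).

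Treg held 3.78 and 1.97 against 0.288 and 1.18 and were positive in 50% and 46.7% against 9.52% and 29.6% of cells, a difference of -2.08 (SE 0.57) that did not pass (adjusted p = 0.102, edgeR). NK cells held 2.89 and 0.385 against 0.264 and 0.114, and the difference of -3.06 (SE 0.72) missed the threshold (adjusted p = 0.0580, edgeR) but passed it in 7 of 11 alternative settings. The γδT cells could not be tested, since tumors held few. DETC were at 3.42 and 2.89 in control skins and the 19 DETC of tumor 2 at 3.77, and dermal γδT cells were at 6.80 and 7.67 in control skins.

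C1q-high macrophages held little Cxcr6, at 0.286 and 0.127 against 0.0186 and 0.0252, and the gene was called lower there (log2 -3.36, SE 0.49, adjusted p = 0.0463, edgeR). Single cells held 20 of the 31 and 20 of the 40 control UMIs, T cell genes summed to 0.286 and 0.277 in the macrophages of control skins against 0.0554 and 0.139 in those of tumors, and the call was lost in 6 of 12 settings, among them the removal of Scrublet doublets (adjusted p up to 0.334). The part of T cell RNA in this difference was not tested. In mDC no Cxcr6 UMI was found in any library (0 of 15, 14, 71 and 25 cells, which allows shares of up to 20%, 21.4%, 4.23% and 12%). In control skins ILC2 (13.1 ± 0.587, SD, n = 2) lay above CD4 (10.2 ± 1.26) and CD8 T cells (9.46 ± 0.634), which overlapped, and these above dermal γδT cells (7.23). In tumors CD8 T cells (5.20 ± 1.42), CD4 T cells (3.603 ± 0.859), the mixed CD3+ class, ILC2 and Treg followed in this order, and neighbours among them overlapped. Treg (0.736) lay above NK cells (0.189) without overlap.

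**Figure D4:**
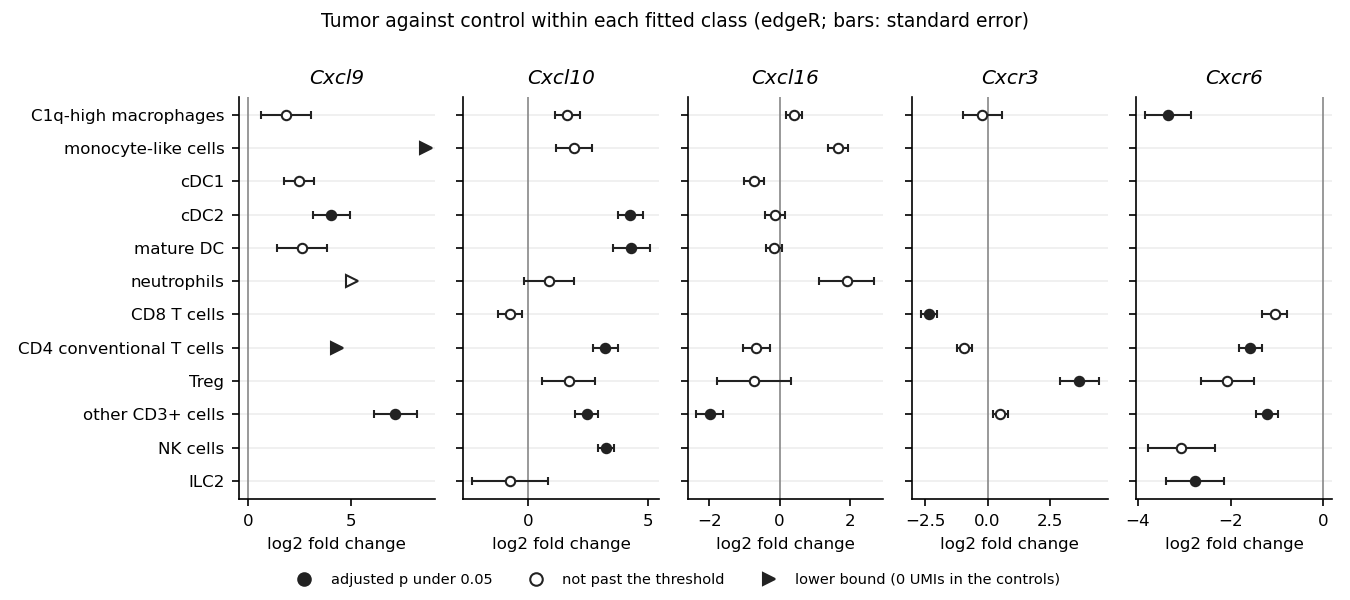
Log2 fold change of tumor against control (x axis) fitted by edgeR for each gene in each tested class (rows), with bars of 1 SE. Filled points passed an adjusted p of 0.05, and triangles mark genes without a UMI in control skins, drawn at the lower bound of the fold. Filled points lie to the right for Cxcl9 and Cxcl10 and to the left for Cxcr6, and Cxcr3 has 1 on either side, in Treg and in CD8 T cells.

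Of 40 tests of these genes in 13 classes, 16 passed, 10 higher and 6 lower in tumors. Of all 92756 tests of all genes in these classes 6.34% passed. The 5 genes were chosen with earlier results of these data known, so this comparison is no independent test of them. Cxcl9 was higher in 4 of the 8 classes where it was tested and Cxcl10 in 5 of 11, and neither was lower in any. Control skins held 0 Cxcl9 UMIs in monocyte-like cells, CD4 T cells and neutrophils and 1 in the mixed CD3+ class. There the gene passed the filter on low counts only through the tumors, so a lower call was not possible. The same holds for Cxcl10 in mDC and CD4 T cells and for Cxcr3 in Treg, where control UMIs were few. Cxcl16 was lower in 1 of 9, Cxcr3 higher in 1 and lower in 1 of 5, and Cxcr6 lower in 4 of 7. Mast cells, in which 0.0741% of 2700 genes passed, held too few UMIs of the members for a test.

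Whether a tumor effect differed between 2 classes was tested as an interaction with library as a block, for 17 combinations of gene and class pair, of which 5 passed. Cxcr3 differed by 6.00 on the log2 scale (SE 0.79, adjusted p = 0.000284, edgeR) between Treg and CD8 T cells, a pair in which 2.04% of genes passed. It also differed by 4.54 (SE 0.83, adjusted p = 0.0248, edgeR) between Treg and CD4 conventional T cells, with 1.07% of genes passing. Control Treg held 2 and 0 Cxcr3 UMIs, so the size of both differences rests on few counts. Between CD4 and CD8 T cells Cxcr3 differed by 1.41 (adjusted p = 0.195, edgeR, 0.72% passing) and between NK cells and CD8 T cells by 1.49 (adjusted p = 0.547, edgeR, 0.498% passing), and neither passed. For Cxcr6 no such difference passed between Treg and CD8 T cells (-1.27, adjusted p = 0.140, edgeR), between CD4 and CD8 T cells (-0.56, adjusted p = 0.322) or between NK cells and CD8 T cells (-1.77, adjusted p = 0.460).

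Among the ligands, the tumor effect in cDC2 exceeded that in C1q-high macrophages by 2.06 for Cxcl9 (SE 0.25, adjusted p = 0.00670, edgeR) and by 2.66 for Cxcl10 (SE 0.23, adjusted p = 0.00345, edgeR), in a pair in which 2.67% of genes passed. The difference for Cxcl10 passed in all 11 alternative settings, and that for Cxcl9 was lost without control skin 1 (adjusted p up to 0.464). Cxcl9 also differed between monocyte-like cells and C1q-high macrophages (adjusted p = 0.00454, edgeR) and was the 1 gene that passed in this pair, 0.00948% of 10554, although the size of that difference depends on the 0 UMIs of the control monocyte-like cells. No ligand passed between cDC2 and cDC1, a pair in which 0.177% of genes passed, and Cxcl9 passed there without the filter on low counts and without tumor 2. Cxcl16 did not pass between monocyte-like cells and C1q-high macrophages (1.18, adjusted p = 0.282, edgeR) or between cDC2 and C1q-high macrophages (-0.52, adjusted p = 0.269, edgeR).

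**Figure D5:**
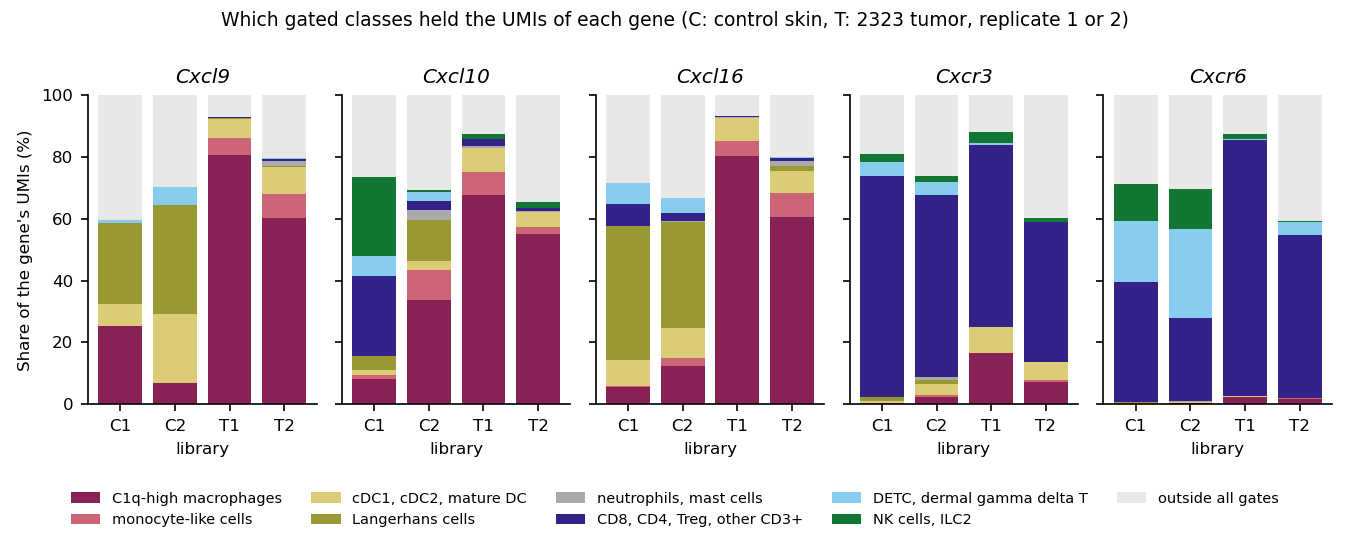
Share of each gene's UMIs (y axis, percent) held by each gated class in each library, with control skins as C1 and C2 and tumors as T1 and T2, and with cells outside all gates as a class of their own. C1q-high macrophages held 70.4% of Cxcl9, 61.3% of Cxcl10 and 70.5% of Cxcl16 UMIs in tumors on average, and no class held so large a share of Cxcr3 or Cxcr6.

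Which cells supplied the transcripts depended on how many cells of a class were sorted as well as on their level. C1q-high macrophages held 70.4 ± 14.5% of all Cxcl9 UMIs in tumors (SD, n = 2), 61.3 ± 8.99% of Cxcl10 and 70.5 ± 13.8% of Cxcl16, against 16.1 ± 12.9%, 20.9 ± 18.2% and 8.87 ± 4.84% in control skins. Shares were also computed with the same weight for each gated class of at least 10 cells, without the cells outside all gates. By this measure the same macrophages would hold 25.1%, 22.7% and 21.9% in tumors on average, against 30.7%, 20.6% and 15.01% in control skins. Their mean share was then lower in tumors for Cxcl9, close to that of control skins for Cxcl10 and higher for Cxcl16. The classes that entered were not the same, however. Langerhans cells, DETC and dermal γδT cells entered in both control skins and not in tumor 1, and tumor 2 lacked dermal γδT cells. Langerhans cells, rich in Cxcl16, took 25.5% of it by this measure in tumor 2. These differences were not tested. In control skins Langerhans cells held 38.8 ± 6.52% of Cxcl16 and 30.7 ± 6.19% of Cxcl9 UMIs. For the receptors, DETC held 22.1 ± 5.84% of Cxcr6 in control skins, the mixed CD3+ class 19.4 ± 3.19% and ILC2 12.2 ± 1.03%, whereas in tumors CD8 T cells held 35.8 ± 29.0% and CD4 T cells 15.98 ± 7.52%. CD8 T cells held 27.4 ± 9.39% of Cxcr3 UMIs in control skins and 11.7 ± 8.99% in tumors, where Treg held 15.1 ± 2.22%. Cells outside all gates held 22.7% to 34.9% of each gene in control skins and 13.3% to 26.5% in tumors on average.

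The ligands were also seen together in single cells. Among C1q-high macrophages of tumors, 721 of 1951 and 174 of 625 cells held both Cxcl9 and Cxcl10, and Cxcl10 was found in 54.1% and 45.9% of Cxcl9+ cells against 33.7% and 28.5% of Cxcl9- cells. The Cxcl9+ macrophages were deeper, with medians of 21275 and 22096 UMIs against 14826 and 16310, and the part of depth in this difference was not tested. In the macrophages of control skins no cell held both. In tumor cDC2 the shares were 38.2% and 45.5% against 24.8% and 19.6%.

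Cxcr6 was found in most CD8 T cells, whether Cxcr3+ or not, and in a minority of the Cxcr3+ Treg of tumors. In control skins all 76 and 24 Cxcr3+ CD8 T cells also held Cxcr6, and in tumors 40 of 49 and 6 of 7 did (81.6% and 85.7%), against 82.7% and 76.9% of all CD8 T cells of tumors. In tumor Treg 8 of 43 and 8 of 20 Cxcr3+ cells held Cxcr6 (18.6% and 40%), against 3.23% and 23.5% of Cxcr3- Treg.

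The surrounding pathway was a list fixed from textbook knowledge of interferon signaling, ligand processing, residency and other chemokine receptors. It was drawn up with earlier results of these data known, so its share of calls is no independent test. Of its 39 tested genes 27 passed in at least 1 class, in 69 of 366 tests (18.9%), against 6.34% of the tests of all genes. Beside the share of all genes called in each class, there were 10 higher and 8 lower of 36 tested in the mixed CD3+ class (50% against 23.8%), 6 and 6 of 33 in CD4 T cells (36.4% against 10%), 5 and 6 of 33 in CD8 T cells (33.3% against 6.63%) and 9 and 1 of 32 in cDC2 (31.2% against 9.13%). There were 3 and 2 of 23 in cDC1 (21.7% against 4.9%), 2 and 2 of 26 in NK cells (15.4% against 2.34%), 2 and 2 of 30 in ILC2 (13.3% against 6.77%), 2 and 0 of 24 in mDC (8.33% against 3.14%), 1 and 1 of 28 in Treg (7.14% against 2.53%) and 1 and 0 of 34 in C1q-high macrophages (2.94% against 0.485%). None passed in monocyte-like cells, neutrophils or mast cells. Irf1, an interferon-induced transcription factor, rose in CD8 T cells (log2 1.28), cDC2 (1.39) and the mixed CD3+ class (1.66).

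Ifng, the gene of interferon gamma, rose in CD4 T cells from 0.750 and 0.589 to 2.01 and 2.48 (log2 1.61, SE 0.26, adjusted p = 0.00458, edgeR) and in the mixed CD3+ class (log2 2.80). In CD8 T cells Ifng was at 1.85 and 0.995 against 2.36 and 1.23, and in NK cells at 2.62 and 1.08 against 2.79 and 3.40. Ifngr2, a chain of its receptor, fell in CD8 T cells (log2 -3.604), CD4 T cells (-1.95) and the mixed CD3+ class (-2.67). Socs1, an inhibitor of the pathway, fell in CD8 T cells (log2 -1.33). Ifnb1, which encodes interferon beta, was called in cDC2, where 1 UMI was found in control skins and 46 and 37 UMIs in tumors. Il15ra, which presents interleukin 15 to lymphocytes, rose in cDC2 (log2 2.47) and mDC (2.36). Of the enzymes that process the ligands, Dpp4, which truncates Cxcl9 and Cxcl10, rose in CD8 T cells (log2 2.69), the mixed CD3+ class (3.48), cDC1 (2.01), cDC2 (2.18) and mDC (3.14), and Adam10 rose in CD4 T cells (0.99).

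Of the genes of tissue residency and exit, both integrins were lower in several lymphocyte classes. Itgae fell in CD8 T cells (log2 -7.45, SE 0.33, adjusted p = 0.000118, edgeR), NK cells (-5.60), CD4 T cells (-3.12), the mixed CD3+ class (-2.93) and Treg (-1.84), but rose in cDC1 (1.39). Itga1, the collagen-binding integrin, fell in CD4 T cells (log2 -2.42), NK cells (-2.53), the mixed CD3+ class (-1.35) and cDC1 (-2.22). Klf2, a factor that keeps lymphocytes in circulation, rose in ILC2 (log2 3.198) and the mixed CD3+ class (2.80), and S1pr1, its target, in the latter (1.26).

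Other chemokine receptors differed as well. Ccr8 fell in CD8 T cells (log2 -4.02) and CD4 T cells (-1.43), and Ccr10 went from 30 and 9 UMIs to 0 in CD8 T cells. Cx3cr1 fell in CD8 T cells (-2.65), CD4 T cells (-2.16), the mixed CD3+ class (-1.29) and ILC2 (90 and 69 UMIs in control skins and 0 in tumors), Ccr4 in CD4 T cells (-1.80) and the mixed class (-1.17), and Cxcr4 in cDC1 (-3.16) and ILC2 (-3.197). Ccr7 rose in CD4 T cells (log2 1.90) and the mixed CD3+ class (1.24). Of the factors that act on these receptors, Tbx21 rose in cDC2 (log2 2.95), Eomes in CD8 T cells (3.50), the mixed CD3+ class (3.49) and CD4 T cells (0 UMIs in control skins and 26 and 44 in tumors), and Prdm1 in CD4 T cells (1.64) and the mixed class (1.48), while Prdm1 fell in cDC2 (-1.83). Cd69 and Runx3 rose in cDC2 (log2 2.04 and 0.95), and Runx3 (-0.76), Il2rb (-1.17) and Il18 (-2.91) fell in the mixed CD3+ class.

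As a description of pattern, each gene was compared with 8139 others over 50 sums of 1 class in 1 library, which share libraries and differ in depth. The genes most like Cxcl9 were Bcl2a1a (Pearson r = 0.864), Ifi205 (0.839) and Aif1 (0.817). For Cxcl10 these were the interferon-induced genes Oas1a (0.783), Ifit2 (0.750) and Parp14 (0.715). For Cxcl16 they were H2-Eb1 (0.951), Slc8a1 (0.947) and H2-Aa (0.946), of which the first and last encode MHC class II chains. For Cxcr3 they were Dennd2d (0.828), Cd6 (0.802) and Bicdl1 (0.798), and for Cxcr6 Ppp1cc (0.946), Zap70 (0.938) and Bcl11b (0.933). Between members, Cxcl9 and Cxcl10 had an r of 0.515 and Cxcr3 and Cxcr6 of 0.587.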

How the data were processed

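The authors deposited filtered 10x matrices of raw UMI counts, made with Cell Ranger (version 7.1.0 in the submitters' processing notes, 7.0.1 in the matrix headers) on mm10, which is build GRCm38. Gene positions came from GENCODE vM21. Nothing was normalized by the authors in these files. Cells were dropped below 1000 UMIs, 100 genes or a complexity (log10 genes divided by log10 UMIs) of 0.8, or above 15% mitochondrial UMIs. Python 3.11.15, numpy 2.4.6, scipy 1.17.1, pandas 2.3.3 and scanpy 1.11.5 were used.

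Classes were gated on UMIs per 10,000 of marker genes. The C1q cut between macrophages and monocyte-like cells was 10, and 10.5% to 16.7% of the cells of both classes in each library lay between 5 and 20. Thresholds were set after looking at the files. Doublets were removed (by Scrublet) only as an alternative, as were cycling cells. Counts were summed per library and class and tested with edgeR 4.0.16 (limma 3.58.1, R 4.3.3): TMM, filterByExpr, glmQLFit and glmQLFTest, with Benjamini-Hochberg adjustment over all genes of the class and a threshold of 0.05. Folds are tumor over control. A level at 0 in a group was set to 3 UMIs over the group for lower bounds. Intervals of shares are exact Clopper-Pearson intervals of 95% and, like the limits of 3 cells behind a share of 0, cover counting error only. Cell-level tests were not used, since cells are not replicates. On simulated counts with 200 genes changed by a log2 change of 2, the test recovered from 17% of them in mast cells to 93.5% in NK cells.

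The genes named are the 5 members in every class, pathway genes that passed in at least 1 class (up to 25), and for each member the 3 genes of highest correlation of log2(UMIs per 10,000 + 0.1) over sums of at least 20 cells. The members and lists were chosen with earlier results of these data known. Of the fixed pathway list, Cxcl11 was not analysed here. A few items, which stay in the counts of the pathway list, are not reported by name here. The red blood cell list was not used. Alternatives were DESeq2 1.42.0, no filter, library size only, a replicate block, stricter gates (levels multiplied by 2), a limit of 10% mitochondrial UMIs, removal of Scrublet doublets, of cycling cells, of the top cell and of each library.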

Additional observations from a re-analysis of the deposited data

Results flagged for a closer look

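Each of the 5 results here is a tumor effect that differed between 2 cell classes of the same libraries by the interaction test of edgeR. Treg of control skins held 2 and 0 Cxcr3 UMIs, so the sizes of the Cxcr3 differences below rest on few counts. The tumor effect on Cxcr3 was larger in Treg than in CD8 T cells by 6.00 on the log2 scale (SE 0.79, adjusted p = 0.000284, edgeR), and by 5.16 to 11.1 over 11 alternative settings, with levels of 0.0326 ± 0.0461 in control skins and 0.508 ± 0.110 in tumors in Treg and of 0.831 ± 0.0393 and 0.201 ± 0.0585 in CD8 T cells (SD, n = 2). It was larger in Treg than in CD4 conventional T cells by 4.54 (SE 0.83, adjusted p = 0.0248), which was lost with DESeq2 and without either control skin (adjusted p up to 0.149). Cxcl10 had a larger tumor effect in cDC2 than in C1q-high macrophages by 2.66 (SE 0.23, adjusted p = 0.00345), which passed in all 11 alternative settings at an adjusted p of up to 0.0221. The cells gated as cDC2 also differed between the tissues in markers such as Cd209a and Kmo, and the part of this in the cDC2 results was not tested. Cxcl9 had a larger effect in cDC2 than in C1q-high macrophages by 2.06 (SE 0.25, adjusted p = 0.00670), and in monocyte-like cells than in C1q-high macrophages by 12.04 (SE 0.98, adjusted p = 0.00454), where the control monocyte-like cells held 0 UMIs and the size is therefore no estimate. Both Cxcl9 differences were lost without control skin 1, which held 438 of the 462 Cxcl9 UMIs of control macrophages, with adjusted p of up to 0.464 and 0.213.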

How the results depend on the processing

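Of the 40 tests of the 5 genes, 9 kept their direction and side of the threshold in every setting that tested them. Of the 16 calls 2 did, Cxcl10 in NK cells over 12 settings and Cxcl9 in CD4 T cells over 11. With stricter gates Cxcl9 had no test in CD4 T cells, whose mean share of tumor Cxcl9 UMIs fell from 0.251% to 0.0247%. Without the filter on low counts, calls of members went from 16 to 33, of pathway genes from 69 to 137 and of interactions from 5 to 10. Classes called without the filter were 10 for Cxcl9 higher, 9 for Cxcl10 higher, 1 for Cxcl16 higher, 2 for Cxcl16 lower and 9 for Cxcr6 lower. Stricter gates left 2 classes for Cxcl9 higher and 2 for Cxcr6 lower. With DESeq2, Cxcl16 was higher in 1 class and Cxcr3 in 0.

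With each library left out in turn, calls of members ranged from 8 (without control skin 1) to 26 (without tumor 2), of pathway genes from 28 to 97 and of interactions from 2 to 8. Classes called ranged from 3 to 8 for Cxcl9 higher, 2 to 8 for Cxcl10 higher, 0 to 1 for Cxcl16 higher, 0 to 2 for Cxcl16 lower, 0 to 1 for Cxcr3 higher, 0 to 1 for Cxcr3 lower and 0 to 6 for Cxcr6 lower. A group of 1 library was assumed to vary like the other group. Without control skin 1, Cxcl10 was higher in 2 classes and Cxcr6 lower in 0.

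The log2 change turned its sign in results that were not called. Cxcl10 turned in CD8 T cells without cycling cells (0.027), in neutrophils under the replicate block (-0.099) and without Scrublet doublets (-0.25), with a range of -1.71 to 9.40 over libraries left out, and in Treg without Scrublet doublets (-0.31), with a range of -1.55 to 2.96. Cxcl16 turned in cDC2 with library size only (0.13) and without cycling cells (0.00070), with a range of -0.44 to 0.23, and ranged from -2.20 to 7.75 in Treg, and Cxcr3 in C1q-high macrophages from -0.43 to 0.43. Among interactions, Cxcl10 between monocyte-like cells and C1q-high macrophages ranged from -0.88 to 0.97, Cxcl9 between cDC2 and cDC1 from -3.97 to 6.21 and Cxcr6 between NK cells and CD8 T cells from -2.92 to 0.050, and Cxcr6 between Treg and CD4 T cells was 0.13 without cycling cells. The cause was not tested.

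In their titles same-numbered libraries shared only the number, and whether they were also handled together was not tested. Their deviations from the group means had a correlation of 0.0555 over all gated cells, with a range from -0.175 in Treg to 0.337 in neutrophils. With replicate as a block, Cxcl9 was also called in neutrophils and cDC1, Cxcl16 was higher in 2 classes, neutrophils and monocyte-like cells, Cxcr6 was called lower in NK cells, and its call in C1q-high macrophages was lost (adjusted p = 0.0581, edgeR). In Treg a block on crossed pairs, chosen after seeing the data, called 579 genes, 2 of them members, against 157. Levels moved by more than their spread in 30 of 130 values without the cell richest in the gene, also chosen after seeing the data. Cxcr3 held 0 to 3 UMIs per library in ILC2 and control Treg, so its values there rest on few counts.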

Other observations

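Cells that no gate took were left out of every comparison above. The 810 and 825 such cells of control skins and 790 and 450 of tumors held Cxcl9 at 0.625 and 0.0775 against 4.36 and 2.93 UMIs per 10,000, Cxcl10 at 0.133 and 0.323 against 4.07 and 2.77, and Cxcr6 at 3.67 and 2.09 against 0.478 and 0.859. For these 3 genes the groups stood in the same order as in the sums over all kept cells, which include these cells. No test was made here, and the share of all genes with such an order was not counted. A further 52, 83, 88 and 86 cells carried markers of B cells, plasmacytoid cells or non-immune skin cells. They held Cxcl10 at 0.143 and 0.613 against 3.36 and 1.73, Cxcl9 at 0 and 0 against 0.894 and 0.158, Cxcl16 at 2.14 and 2.36 against 0.544 and 0.135, and Cxcr6 at 1.4005 and 0.517 against 0.0874 and 0.0192. Cxcl16 was thus lower in tumors among these cells, whereas it was higher in tumors over all kept cells.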
